A study of Mus musculus with 24 samples.

Results

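The 40 genes described here encode proteins of the cell cycle, and were listed by function: G1 cyclins, factors that license and copy DNA, enzymes that supply nucleotides, and the kinases, checkpoint proteins and kinesins of mitosis. They are 40 of the 21965 genes in the count table, and all 40 were among the 17167 genes tested. They were read in mouse spinal cord before and after a moderate contusion at T9 (50 kdyn), in 24 libraries of 8 groups with 3 libraries each. Naive cord, and cord on 2, 10 and 42 days post injury (dpi), each gave total RNA and an oligodendrocyte (OL) translatome. Every mouse, naive ones included, was an OL-Ribotag female treated with tamoxifen. The labels give an age of 10 to 12 weeks at surgery for all groups, though naive mice were uninjured. The study's methods give a younger age at injury. By the study's text, naive and dpi 42 cords were collected on the same day, 10 weeks after tamoxifen began. Naive cord was thus not matched to dpi 2 and dpi 10 in age or in time since tamoxifen. In OL-Ribotag mice, a Cre recombinase that needs tamoxifen is driven by an OL promoter and puts a hemagglutinin (HA) tag on the ribosomal protein RPL22, so that an HA antibody pulls down ribosomes with their mRNA. Each library came from a pool of 2 mice, and the OL translatome and total RNA of a pool came from the same lysate. That promoter is also active in Schwann cells, so their ribosomes can carry the tag as well.

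Library totals ran from 25840127 to 32987841 counts (median 29062636), and the limit set by 3 counts was 0.0909 to 0.116 CPM (counts scaled to the size of the library). All CPM values below were also scaled by TMM (trimmed mean of M-values), and on that scale the limit was 0.0840 to 0.127 CPM. A sum over 7 mature OL markers was 70580 to 95410 CPM in the OL libraries against 14820 to 18650 CPM in total RNA. Several libraries stood apart. Counts of 4 Y-linked genes reached 2604 in total RNA and 2414 in the OL translatome of pool 2 on dpi 2, against at most 13 in the other 22 libraries, although all mice are labelled female. Astrocyte markers summed to 957 to 12320 CPM in the OL libraries, and naive OL library 3 (8836 CPM, against 1504 and 1350 CPM in the other naive OL libraries) also held 762 CPM of Schwann cell markers against 96.8 and 99.3 CPM.

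The cell cycle is driven by cyclin-dependent kinases (CDKs) that cyclins switch on in turn: D and E cyclins lead a cell through G1, cyclin A through S phase, and cyclin B with CDK1 into mitosis. The mRNAs of these genes rise and fall with the cycle itself, because E2F factors transcribe replication genes near the G1 to S transition and the MuvB complexes with B-MYB and FOXM1 transcribe mitotic genes in G2. After spinal cord contusion, microglia, astrocytes, OL progenitor cells (OPCs), endothelial cells and pericytes are known to divide, whereas mature OLs are held to be postmitotic. In bulk samples such as these, more cells of a dividing type and more RNA per cell cannot be told apart.

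Promoters are shown first, because CHR letters were more frequent in mitotic genes and E2F letters in replication genes, though neither was in every gene. RefSeq windows of GRCm38.p6, from 250 bases before to 50 bases after the transcription start, matched 32 of the 40 members in 35 windows. Members without a matched window were Ccnd1, Ccnd2, Ccne2, Mcm4, Ccna2, Aurkb, Kif20a and Tpx2. Each window was searched on both strands for TTTGAA (the cell cycle genes homology region, CHR, read by MuvB complexes), CCAAT (read by NF-Y) and 4 E2F forms (TTTCCCGC, TTTCGCGC, TTTGCCGC and TTTGGCGC). Different motifs overlapped 2 times in the members' windows. CHR letters stood in the windows of 15 of 19 S, G2 and mitosis genes (78.9%) and of 2 of 11 replication and nucleotide genes (18.2%), against 20.2% of all 27025 genes in the promoter table. E2F letters stood in 5 of the 11 replication and nucleotide genes (45.5%) and 1 of the 19 S, G2 and mitosis genes (5.26%), against 2.6% of all genes. CCAAT stood in 9 of 11 (81.8%) and 18 of 19 (94.7%), against 41.1% of all genes, and all 15 mitotic genes with CHR letters had CCAAT too. Of 20 CHR matches in the windows of S, G2 and mitosis genes, 15 began between 60 bases before and 50 bases after the start. The 2 windows of Prc1 overlap, and the same CHR letters were counted in both. A match is a description of letters and not a measured site.

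**Figure D1:**
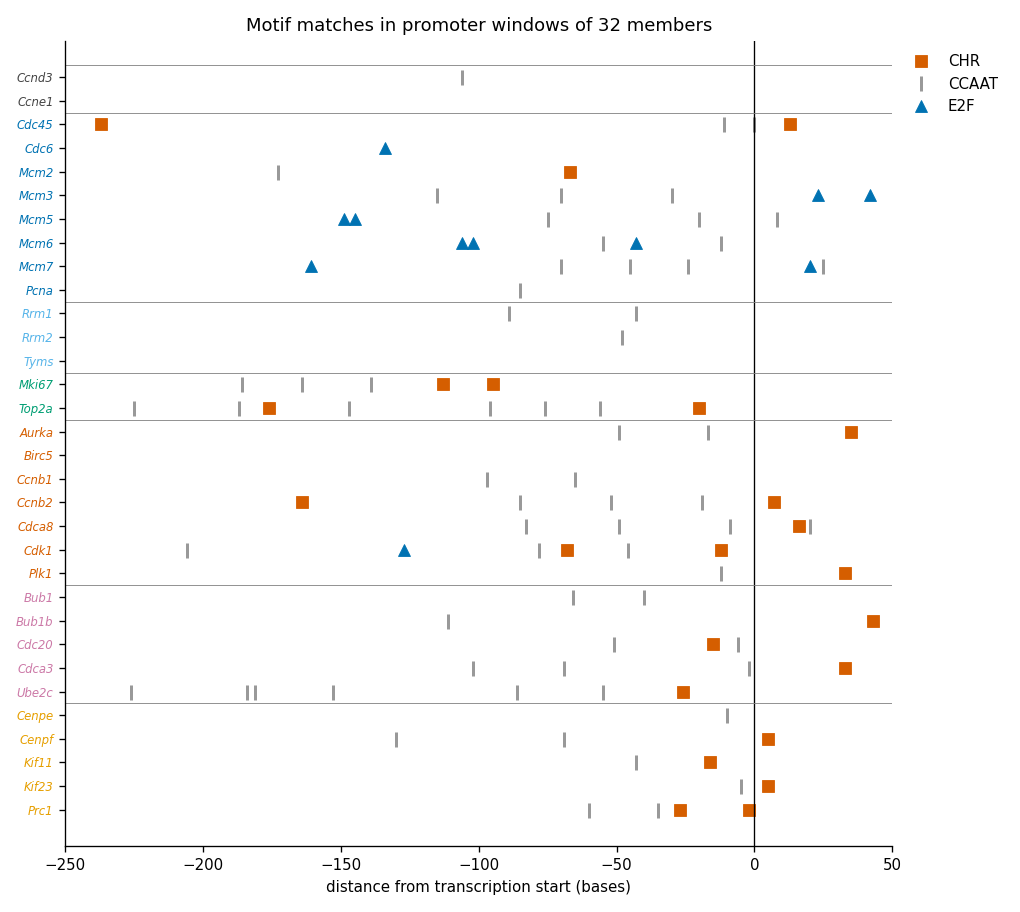
Positions of CHR, CCAAT and E2F letters (horizontal axis, bases from the transcription start) in the promoter windows of 32 members, 1 row a gene, grouped and coloured by role. CHR matches (squares) lie near the start in most of the mitotic genes, and E2F matches (triangles) are in the rows of replication genes, with Cdk1 as the 1 mitotic gene that holds one.

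The 5 windows below were picked after motifs and values were seen, to show both kinds of promoter: a pair of helicase genes and 3 mitotic genes. Capitals mark the letters of the motifs on either strand.
Mcm3 (chr1:20820263-20820562, minus strand): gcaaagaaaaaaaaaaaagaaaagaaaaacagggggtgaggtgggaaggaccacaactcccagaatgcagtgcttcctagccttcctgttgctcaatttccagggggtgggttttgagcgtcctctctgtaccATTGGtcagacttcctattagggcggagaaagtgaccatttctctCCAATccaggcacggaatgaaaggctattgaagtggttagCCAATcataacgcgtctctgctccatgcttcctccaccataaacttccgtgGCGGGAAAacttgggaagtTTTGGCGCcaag
Mcm5 (chr8:75109259-75109558, plus strand): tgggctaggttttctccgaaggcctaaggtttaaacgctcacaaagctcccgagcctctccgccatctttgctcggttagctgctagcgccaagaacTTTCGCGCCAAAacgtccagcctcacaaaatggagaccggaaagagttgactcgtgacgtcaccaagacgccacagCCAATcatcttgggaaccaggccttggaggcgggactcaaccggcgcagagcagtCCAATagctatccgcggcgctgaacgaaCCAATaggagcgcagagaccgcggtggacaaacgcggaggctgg
Cdk1 (chr10:69352863-69353162, minus strand): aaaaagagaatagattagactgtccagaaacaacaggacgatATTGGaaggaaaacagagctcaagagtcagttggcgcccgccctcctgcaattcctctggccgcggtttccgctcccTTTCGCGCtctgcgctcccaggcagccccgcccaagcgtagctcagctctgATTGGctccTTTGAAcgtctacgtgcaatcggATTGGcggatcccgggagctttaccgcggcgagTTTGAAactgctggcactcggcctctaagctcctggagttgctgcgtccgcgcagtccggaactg
Ccnb2 (chr9:70421505-70421804, minus strand): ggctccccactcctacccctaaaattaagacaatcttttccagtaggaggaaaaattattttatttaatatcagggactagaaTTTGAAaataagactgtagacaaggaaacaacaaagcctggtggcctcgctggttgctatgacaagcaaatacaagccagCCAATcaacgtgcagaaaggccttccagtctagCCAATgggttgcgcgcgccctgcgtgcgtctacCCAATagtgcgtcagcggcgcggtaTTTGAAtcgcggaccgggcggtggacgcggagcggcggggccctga
Ube2c (chr2:164769679-164769978, plus strand): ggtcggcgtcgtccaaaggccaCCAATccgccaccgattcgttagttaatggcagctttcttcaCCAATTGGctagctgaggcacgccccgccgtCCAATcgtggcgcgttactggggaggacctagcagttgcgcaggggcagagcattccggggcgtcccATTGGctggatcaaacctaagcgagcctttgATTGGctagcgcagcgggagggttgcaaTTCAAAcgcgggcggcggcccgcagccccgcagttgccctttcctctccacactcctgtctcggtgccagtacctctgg
Mcm3 and Mcm5 each held 2 E2F forms and 3 CCAAT boxes without CHR letters. Cdk1 held 2 CHR matches, 3 CCAAT boxes and 1 E2F form, Ccnb2 held 2 CHR matches and 3 CCAAT boxes, and Ube2c held 1 CHR match and 6 CCAAT boxes.

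The cell cycle genes rose nearly as a block in total RNA on dpi 2. Of the 40 members, 38 were higher than in naive cord and 0 were lower (edgeR quasi-likelihood test, Benjamini-Hochberg adjusted p under 0.05), where 16.4% of all genes tested were called higher and 20.8% lower. Fold changes are given in log2 units ± the standard error (SE) of the fit. The median log2 fold change of the members was 3.94 (all genes -0.10), and 39 of 40 members had all 3 dpi 2 libraries above all 3 naive libraries, as 24.7% of all genes did. Aurkb, the kinase of the chromosomal passenger complex, had the highest fitted change, 8.03 ± 1.21 log2 units (adjusted p = 3.04e-05). That value has no firm size, because the naive total RNA libraries held 4, 0 and 0 counts of Aurkb. The uncalled members were G1 cyclins, Ccnd2 (0.99 ± 0.62 log2 units, adjusted p = 0.233) and Ccne1 (-0.26 ± 0.36 log2 units, adjusted p = 0.614). On dpi 10, 24 members were still higher than in naive cord and 0 were lower (background 13.9% and 18.2%), with a median of 1.63. On dpi 42 there were 16 higher and 0 lower (background 10.4% and 12.1%), with a median of 1.14.

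The OL translatome had fewer calls, and they went in both directions. On dpi 2, 24 members were higher and 2 were lower than in naive OLs (background 18.4% and 20%), with a median log2 fold change of 1.38 (all genes 0). On dpi 10, 17 were higher and 2 lower (background 9.62% and 8.59%), and on dpi 42, 14 were higher and 2 lower (background 16.2% and 16.9%). The member medians were 1.12 and 0.50 (0.45 when genes at 0 are set to their bounds). Mcm4 and Rrm1 were the members called lower, on all 3 days. In naive OLs, Ccnb1, Ccnb2, Aurkb, Bub1 and Kif23 had 0 counts in all 3 libraries, Ube2c had 1 count and Cdk1 had 3, so that their OL changes are given as bounds or as ratios with a counting interval. Without naive OL library 1, the dpi 42 count was 10 instead of 16.

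**Figure D2:**
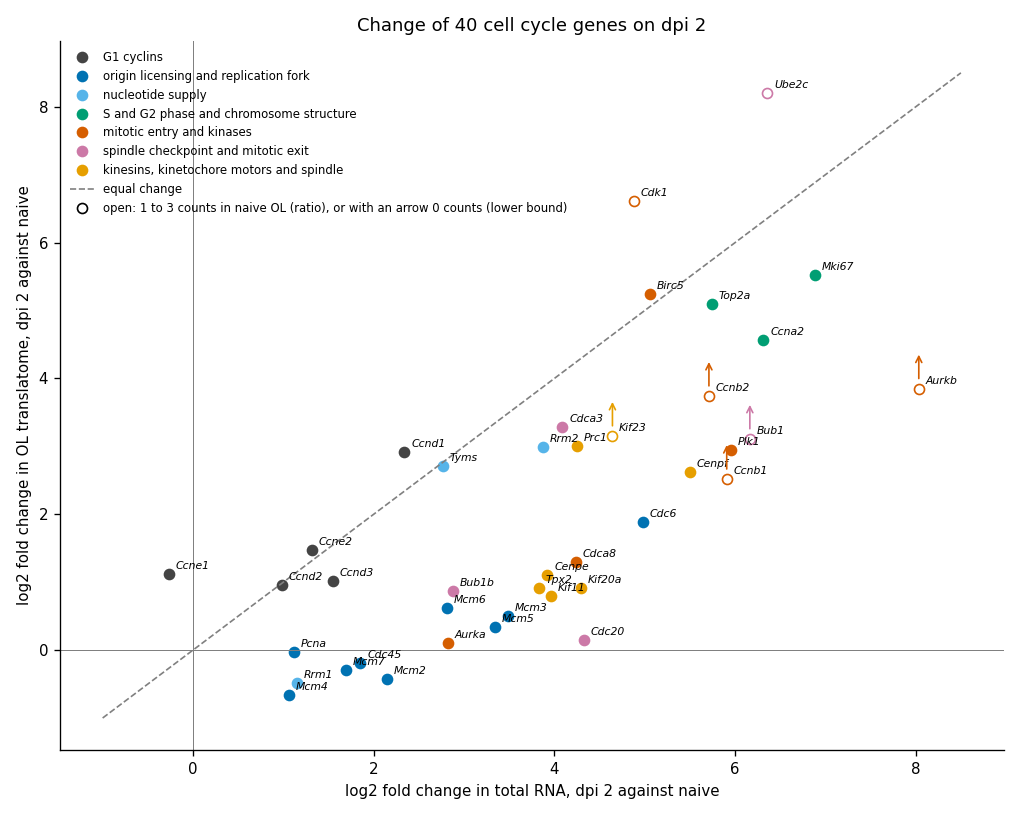
Log2 fold change on dpi 2 against naive in total RNA (horizontal axis) and in the OL translatome (vertical axis) for 40 genes, coloured by role; the dashed line marks equal change, and open points rest on 0 to 3 counts in naive OLs (arrows: lower bounds). Replication genes lie between -0.67 and 1.89 on the OL axis and between 1.07 and 4.98 in total RNA, whereas Ccnd1 lies on the other side of the line at 2.92 against 2.34. Ccne1, Ccne2 and Birc5, and Cdk1 and Ube2c among the open points, lie on that side too.

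G1 cyclins carry growth signals into the cycle, the D cyclins with CDK4 and CDK6 and the E cyclins with CDK2. In total RNA on dpi 2, 3 of 5 rose (median 1.31), and in the OL translatome 4 of 5 rose. For this and the following counts by role, the dpi 2 background was 16.4% higher and 20.8% lower in total RNA. In OLs it was 18.4% and 20%. Ccnd1 (chr7:144929931-144939925, minus strand; positions are those of GRCm38 throughout), the cyclin D1 gene, was at 46.7, 50.1 and 52.5 CPM in naive cord, 259.6, 279 and 218 on dpi 2, 76.2, 88.7 and 82.7 CPM on dpi 10 and 83.2, 78.01 and 92.5 CPM on dpi 42 in total RNA. Ccnd1 in OLs was at 14.9, 17.1 and 27.5 CPM in naive cord, 146, 119.5 and 187 on dpi 2, 53.5, 68.3 and 60.98 CPM on dpi 10 and 53.7, 52.9 and 31.97 CPM on dpi 42. The injured libraries lay above the naive ones at every time in both, with dpi 2 far above the rest. Ccnd1 rose by 2.34 ± 0.21 log2 units (adjusted p = 4.1e-08) in total RNA and by 2.92 ± 0.22 log2 units (adjusted p = 2.1e-09) in OLs on dpi 2, and the difference of the changes was 0.58 ± 0.29 log2 units (adjusted p = 0.207), which did not pass. The rise of the mean OL level was 64.7% of the rise in total RNA. Ccnd3, the cyclin D3 gene, rose by 1.55 ± 0.21 log2 units (adjusted p = 7.62e-06) and 1.01 ± 0.21 log2 units (adjusted p = 0.000668). Ccne2, a cyclin E gene, rose by 1.31 ± 0.51 log2 units (adjusted p = 0.0475) and 1.47 ± 0.52 log2 units (adjusted p = 0.0306). A replicate block was also fitted. For OL enrichment it pairs the OL and total RNA libraries of a pool. For changes over time it uses the pool number, which different animals share across groups, so that it is no pairing. With this block the adjusted p of Ccne2 in total RNA was 0.0574. Ccne1, the other cyclin E gene, rose in OLs by 1.12 ± 0.39 log2 units (adjusted p = 0.0288) on dpi 2 and 1.22 ± 0.39 log2 units (adjusted p = 0.0358) on dpi 10, and the difference from its total RNA change passed on dpi 10 (2.17 ± 0.54 log2 units, adjusted p = 0.0152) and not on dpi 2 (1.39 ± 0.54 log2 units, adjusted p = 0.0941).

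Ccnd2 (chr6:127125162-127152193, minus strand), the cyclin D2 gene, varied widely among OL libraries. In total RNA it was at 37.4, 36.1 and 38.6 CPM in naive cord, 75.5, 69.4 and 77.2 on dpi 2, 60.9, 70.4 and 65.7 CPM on dpi 10 and 73.3, 51.8 and 85.1 CPM on dpi 42. Ccnd2 in OLs was at 7.73, 6.60 and 37.9 CPM in naive cord, 25.3, 9.24 and 67.7 on dpi 2, 18.4, 44.1 and 22.2 CPM on dpi 10 and 85.5, 71.6 and 15.6 CPM on dpi 42. All injured total RNA libraries lay above the naive ones, while the OL groups overlapped at each time. The dpi 42 OL value of 1.72 ± 0.64 log2 units (adjusted p = 0.0438) passed the test. The 5 OL libraries with the most Ccnd2 were also the 5 with the highest astrocyte marker sum (6340 to 12320 CPM), among them naive OL library 3 and dpi 42 OL libraries 1 and 2. The part of astrocyte RNA in the Ccnd2 values was not tested.

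Genes that license origins and run the replication fork rose as a group in total RNA, whereas most were not called in OLs. On dpi 2, 9 of 9 were called higher in total RNA (median 2.15), against 1 higher (Mcm6, 0.62 ± 0.24 log2 units, adjusted p = 0.0436) and 1 lower (Mcm4) in the OL translatome. Both OL shares lay below the background of 18.4% higher and 20% lower. MCM2 to MCM7 form the ring of the replicative helicase, which CDC6 helps to load and CDC45 helps to activate. Mcm3 (chr1:20802968-20820312, minus strand) was at 3.08, 3.84 and 3.27 CPM in naive cord, 32.5, 39.5 and 42.2 on dpi 2, 13.3, 15.3 and 17.2 CPM on dpi 10 and 11.8, 9.56 and 11.04 CPM on dpi 42 in total RNA. Mcm3 in OLs was at 12.9, 12.8 and 13.2 CPM in naive cord, 16.7, 13 and 25.1 on dpi 2, 14.2, 14.2 and 16.1 CPM on dpi 10 and 11.4, 18.4 and 17.6 CPM on dpi 42. Total RNA libraries of each day lay above the naive ones, and the OL libraries of dpi 2 overlapped the naive ones. Mcm3 rose by 3.48 ± 0.23 log2 units (adjusted p = 6.93e-10) in total RNA, and its OL value was 0.50 ± 0.21 log2 units (adjusted p = 0.0688).

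Mcm4 (chr16:15623897-15637400, minus strand) moved in opposite directions in the cord and in OLs. In total RNA it was at 14.9, 12.4 and 14.99 CPM in naive cord, 28.2, 30.6 and 29.9 on dpi 2, 16.02, 17.3 and 18.5 CPM on dpi 10 and 12.6, 17.4 and 16.8 CPM on dpi 42. Mcm4 in OLs was at 47.7, 47.3 and 46.3 CPM in naive cord, 26.4, 29.5 and 33.05 on dpi 2, 33.5, 29.5 and 30.9 CPM on dpi 10 and 25.97, 31.96 and 36.1 CPM on dpi 42. Naive OL libraries lay between 46.3 and 47.7 CPM, and every injured OL library lay below them. Mcm4 rose by 1.07 ± 0.14 log2 units (adjusted p = 4.38e-06) in total RNA on dpi 2, and fell in OLs with changes of -0.67 ± 0.14 log2 units (adjusted p = 0.000617) on dpi 2, -0.59 ± 0.14 log2 units (adjusted p = 0.00486) on dpi 10 and -0.59 ± 0.14 log2 units (adjusted p = 0.00249) on dpi 42. Rrm1 (chr7:102441695-102469771, plus strand), the large subunit of ribonucleotide reductase, which makes deoxyribonucleotides, had the same pattern. It was at 23.9, 21.2 and 25.1 CPM in naive cord, 50.8, 54.3 and 51.3 on dpi 2, 25.4, 25.4 and 21.9 CPM on dpi 10 and 22.8, 22.7 and 20.9 CPM on dpi 42 in total RNA. Rrm1 in OLs was at 60.01, 67.01 and 55.5 CPM in naive cord, 43.3, 41.4 and 45.5 on dpi 2, 45.8, 45.9 and 44.1 CPM on dpi 10 and 48.5, 40.1 and 49.8 CPM on dpi 42. Here too the naive OL libraries were above each injured OL library. Rrm1 rose by 1.16 ± 0.11 log2 units (adjusted p = 5.43e-08) in total RNA and fell in OLs, with changes of -0.49 ± 0.11 log2 units (adjusted p = 0.000912), -0.43 ± 0.11 log2 units (adjusted p = 0.0071) and -0.40 ± 0.11 log2 units (adjusted p = 0.00595) on dpi 2, 10 and 42.

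Pcna (chr2:132249162-132253314, minus strand), the sliding clamp that holds DNA polymerases on DNA, was higher in OLs than in total RNA in every group, although with library sizes alone the log2 ratio on dpi 2 was -0.14. In total RNA it was at 30.8, 30.4 and 28.4 CPM in naive cord, 66.3, 67.3 and 61 on dpi 2, 35.2, 35.03 and 30.6 CPM on dpi 10 and 36.8, 32.3 and 32.05 CPM on dpi 42. Pcna in OLs was at 93.8, 98.9 and 73.9 CPM in naive cord, 96.1, 92.1 and 74.6 on dpi 2, 93.9, 90.5 and 85.98 CPM on dpi 10 and 94.1, 89.9 and 84.3 CPM on dpi 42. OL libraries of the 4 groups overlapped, whereas in total RNA the dpi 2 libraries lay above all the others. Pcna rose by 1.12 ± 0.11 log2 units (adjusted p = 1.63e-07) in total RNA on dpi 2. Its OL value was -0.02 ± 0.11 log2 units (adjusted p = 0.961).

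Other genes of the replication machinery also peaked in total RNA on dpi 2. Mcm2 (chr6:88883474-88898780, minus strand) was at 8.56, 5.71 and 7.20 CPM in naive cord, 31.9, 29.2 and 33.95 on dpi 2, 7.21, 11.6 and 11.7 CPM on dpi 10 and 10.2, 8.24 and 10.99 CPM on dpi 42 in total RNA. Mcm2 in OLs was at 32.6, 28.5 and 23.6 CPM in naive cord, 20.9, 19.6 and 22.3 on dpi 2, 31.5, 23.1 and 24.3 CPM on dpi 10 and 25.9, 19.3 and 21.2 CPM on dpi 42. Dpi 2 libraries were the highest in total RNA. In OLs they were below all naive libraries, with a change of -0.43 ± 0.20 log2 units (adjusted p = 0.0909), which did not pass, beside 2.15 ± 0.20 log2 units (adjusted p = 8.25e-08) in total RNA. Mcm5 (chr8:75109569-75128439, plus strand) was at 3.41, 3.84 and 2.54 CPM in naive cord, 31.4, 28.6 and 39.4 on dpi 2, 9.70, 7.93 and 6.97 CPM on dpi 10 and 6.07, 6.41 and 7.34 CPM on dpi 42 in total RNA. Mcm5 in OLs was at 9.46, 12.1 and 8.91 CPM in naive cord, 14.2, 9.07 and 15.1 on dpi 2, 8.74, 9.89 and 10.5 CPM on dpi 10 and 8.21, 11.3 and 11.2 CPM on dpi 42. The OL groups overlapped, with 0.33 ± 0.22 log2 units (adjusted p = 0.256) on dpi 2, and Mcm5 rose by 3.34 ± 0.24 log2 units (adjusted p = 2.14e-09) in total RNA. Mcm7 (chr5:138164583-138172422, minus strand) was at 10.7, 8.99 and 9.70 CPM in naive cord, 27.9, 35.3 and 32.01 on dpi 2, 13.8, 13.5 and 11.4 CPM on dpi 10 and 11.9, 10.8 and 12.2 CPM on dpi 42 in total RNA. Mcm7 in OLs was at 23.8, 23.9 and 18.6 CPM in naive cord, 19.99, 15.4 and 18.6 on dpi 2, 20.1, 21.4 and 17.7 CPM on dpi 10 and 13.6, 23 and 23.7 CPM on dpi 42. It rose by 1.70 ± 0.19 log2 units (adjusted p = 5.1e-07) in total RNA, with an OL value of -0.30 ± 0.18 log2 units (adjusted p = 0.219) and overlapping OL groups. Cdc45 (chr16:18780447-18811987, minus strand) was at 2.46, 1.84 and 2.25 CPM in naive cord, 9.13, 6.25 and 8.31 on dpi 2, 3.06, 1.87 and 2.32 CPM on dpi 10 and 2.63, 3.18 and 1.91 CPM on dpi 42 in total RNA. Cdc45 in OLs was at 6.34, 6.35 and 4.71 CPM in naive cord, 5.97, 4.86 and 4.40 on dpi 2, 5.40, 5.63 and 3.16 CPM on dpi 10 and 2.73, 5.75 and 5.09 CPM on dpi 42. Cdc45 rose by 1.85 ± 0.34 log2 units (adjusted p = 0.000185) in total RNA on dpi 2, while its OL groups overlapped at -0.19 ± 0.33 log2 units (adjusted p = 0.718). Cdc6 rose by 4.98 ± 1.31 log2 units (adjusted p = 0.00469) in total RNA, and its OL value of 1.89 ± 1.16 log2 units (adjusted p = 0.215) did not pass.

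Of the nucleotide enzymes, 3 of 3 rose in total RNA on dpi 2 (median 2.77). Rrm2 (chr12:24708241-24714146, plus strand), the small subunit of ribonucleotide reductase whose level follows S phase, was at 2.16, 2.74 and 1.71 CPM in naive cord, 31.1, 36.1 and 29.9 on dpi 2, 6.08, 7.41 and 5.96 CPM on dpi 10 and 5.47, 4.83 and 5.18 CPM on dpi 42 in total RNA. Rrm2 in OLs was at 0.756, 0.381 and 1.65 CPM in naive cord, 3.36, 4.70 and 14.3 on dpi 2, 3.22, 4.26 and 4.34 CPM on dpi 10 and 5.94, 3.58 and 2.04 CPM on dpi 42. Unlike Rrm1, it was higher in all injured libraries than in the naive ones in both materials, with OL library 3 the highest on dpi 2. Rrm2 rose by 3.87 ± 0.51 log2 units (adjusted p = 3.91e-06) in total RNA and by 2.99 ± 0.51 log2 units (adjusted p = 7.68e-05) in OLs. Tyms, thymidylate synthase, rose by 2.77 ± 0.65 log2 units (adjusted p = 0.00172) and 2.70 ± 0.69 log2 units (adjusted p = 0.00344).

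The S and G2 phase genes had a high rise in both materials, and 3 of 3 were called in each (median 6.31 in total RNA). Mki67 (chr7:135689784-135716361, minus strand) encodes Ki-67, which coats mitotic chromosomes and is the common label of dividing cells. It was at 0.787, 0.516 and 0.444 CPM in naive cord, 62.1, 69.3 and 76.9 on dpi 2, 11, 14.96 and 13.99 CPM on dpi 10 and 5.84, 2.88 and 8.71 CPM on dpi 42 in total RNA. Mki67 in OLs was at 0.168, 0.296 and 0.115 CPM in naive cord, 5.90, 9.88 and 11.1 on dpi 2, 3.92, 4.49 and 2.63 CPM on dpi 10 and 1.36, 3.58 and 2.11 CPM on dpi 42. Injured libraries lay above the naive ones at each time in both, and dpi 2 was the highest group. Mki67 rose by 6.89 ± 0.46 log2 units (adjusted p = 8.1e-10) in total RNA and by 5.52 ± 0.49 log2 units (adjusted p = 2.37e-08) in OLs. Top2a (chr11:98992943-99024189, minus strand), the topoisomerase that untangles replicated chromosomes, was at 0.787, 0.967 and 1.11 CPM in naive cord, 50.7, 55.7 and 47.6 on dpi 2, 8.90, 12.7 and 7.05 CPM on dpi 10 and 7.47, 3.33 and 7.91 CPM on dpi 42 in total RNA. Top2a in OLs was at 0.168, 0 and 0.612 CPM in naive cord, 6.95, 4.70 and 16.2 on dpi 2, 3.65, 5.14 and 8.30 CPM on dpi 10 and 1.68, 1.64 and 0.978 CPM on dpi 42. It rose by 5.74 ± 0.61 log2 units (adjusted p = 2.87e-07) and by 5.09 ± 0.65 log2 units (adjusted p = 2.57e-06), with OL library 3 again the highest of dpi 2. Ccna2, cyclin A2, rose by 6.31 ± 0.55 log2 units (adjusted p = 2.53e-08) and by 4.57 ± 0.54 log2 units (adjusted p = 1.03e-06).

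Of the genes of mitotic entry, 8 of 8 rose in total RNA on dpi 2 (median 5.38) and 7 of 8 in OLs. Cdk1 (chr10:69335146-69352938, minus strand), the kinase that starts mitosis, was at 0.689, 0.838 and 0.792 CPM in naive cord, 22.6, 21.6 and 24.7 on dpi 2, 4.57, 4.64 and 6.83 CPM on dpi 10 and 4.72, 3.99 and 2.88 CPM on dpi 42 in total RNA. Cdk1 in OLs was at 0.0840, 0 and 0.0382 CPM in naive cord, 2.04, 3.04 and 6.89 on dpi 2, 0.777, 2.93 and 2.89 CPM on dpi 10 and 3.15, 0.635 and 0 CPM on dpi 42. All injured total RNA libraries were above the naive ones, while on dpi 42 the OL libraries spread from 0 to 3.15 CPM. Cdk1 rose by 4.88 ± 0.87 log2 units (adjusted p = 0.000125) in total RNA. In OLs the dpi 2 mean was 98.1-fold (95% counting interval 33.2 to 478) the naive one, with 309 counts against 3. Its partners Ccnb1 and Ccnb2, the B cyclins, were at 0 counts in naive OLs. Their dpi 2 OL means were at least 5.73-fold and 13.4-fold higher, by a floor of 3 counts per library. The 3 dpi 2 OL libraries held 5, 19 and 30 counts of Ccnb1 and 36, 0 and 93 of Ccnb2. Such bounds cover counting error and not the spread between pools. Aurkb was at least 14.4-fold higher in OLs on the same floor of 3 counts per library.

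Birc5 and Cdca8 encode survivin and borealin, partners of Aurora B in the chromosomal passenger complex. Birc5 (chr11:117849251-117855743, plus strand) was at 0.951, 0.451 and 0.412 CPM in naive cord, 17.1, 23.9 and 19.6 on dpi 2, 3.59, 3.49 and 1.95 CPM on dpi 10 and 2.58, 2.16 and 3.39 CPM on dpi 42 in total RNA. Birc5 in OLs was at 0.0840, 0.127 and 0.191 CPM in naive cord, 4.27, 6.36 and 5.16 on dpi 2, 0.505, 3.58 and 0.837 CPM on dpi 10 and 0.385, 0.560 and 1.02 CPM on dpi 42. It rose by 5.05 ± 0.61 log2 units (adjusted p = 1.71e-06) and 5.24 ± 0.68 log2 units (adjusted p = 3.15e-06), and no injured library overlapped the naive ones. Cdca8 (chr4:124918465-124939311, minus strand) was at 1.02, 0.742 and 1.01 CPM in naive cord, 13.7, 15.9 and 23.03 on dpi 2, 3.65, 2.45 and 1.69 CPM on dpi 10 and 1.49, 1.26 and 1.45 CPM on dpi 42 in total RNA. Cdca8 in OLs was at 2.90, 1.95 and 1.34 CPM in naive cord, 3.78, 1.78 and 9.64 on dpi 2, 4.31, 6.09 and 3.20 CPM on dpi 10 and 3.81, 1.46 and 4.70 CPM on dpi 42. Cdca8 rose by 4.24 ± 0.57 log2 units (adjusted p = 5.12e-06) in total RNA. Its smaller OL rise of 1.30 ± 0.51 log2 units (adjusted p = 0.0495) rested on groups that overlapped and was not called with the replicate block (adjusted p = 0.08). Plk1, a kinase of mitotic entry and spindle assembly, rose by 5.95 ± 1.11 log2 units (adjusted p = 0.000216) and 2.95 ± 1.04 log2 units (adjusted p = 0.0298). Its OL counts were 61, 0 and 81 on dpi 2, against 2, 7 and 8 in naive cord. Aurka, the centrosome kinase Aurora A, rose by 2.83 ± 0.48 log2 units (adjusted p = 7.28e-05) in total RNA. It had an OL value of 0.11 ± 0.45 log2 units (adjusted p = 0.93).

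The spindle checkpoint holds anaphase until all chromosomes are attached, and the anaphase-promoting complex (APC/C) then ends mitosis. In total RNA 5 of 5 of these genes rose on dpi 2 (median 4.33), and in OLs 3 of 5. Ube2c (chr2:164769898-164778822, plus strand), the ubiquitin-conjugating enzyme of the APC/C, was at 0.262, 0.387 and 0.380 CPM in naive cord, 26.6, 33.7 and 25.2 on dpi 2, 2.05, 6.37 and 3.47 CPM on dpi 10 and 3.29, 1.98 and 4.18 CPM on dpi 42 in total RNA. Ube2c in OLs was at 0.0420, 0 and 0 CPM in naive cord, 2.04, 4.01 and 6.01 on dpi 2, 3.07, 4.18 and 5.37 CPM on dpi 10 and 2.87, 1.38 and 1.29 CPM on dpi 42. Injured libraries were above naive ones in both materials throughout. It rose by 6.36 ± 0.57 log2 units (adjusted p = 3.52e-08) in total RNA. In OLs its dpi 2 mean was 295-fold (95% counting interval 52.6 to 11690.0) the naive one, from 1 naive count. Cdca3 (chr6:124829547-124833701, plus strand), a trigger of mitotic entry, was at 1.21, 1.77 and 1.46 CPM in naive cord, 23.5, 25.9 and 26.5 on dpi 2, 2.05, 4.76 and 3.81 CPM on dpi 10 and 3.75, 3.48 and 3.62 CPM on dpi 42 in total RNA. Cdca3 in OLs was at 1.01, 0.254 and 0.574 CPM in naive cord, 4.57, 3.32 and 10.2 on dpi 2, 2.25, 2.89 and 2.40 CPM on dpi 10 and 1.33, 2.50 and 0 CPM on dpi 42. Cdca3 rose by 4.09 ± 0.74 log2 units (adjusted p = 0.000158) and 3.29 ± 0.75 log2 units (adjusted p = 0.00141).

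Cdc20 (chr4:118432901-118437352, minus strand), which activates the APC/C, had a naive level in OLs above that of total RNA. In total RNA it was at 0.787, 0.871 and 0.475 CPM in naive cord, 14.7, 14.7 and 13.7 on dpi 2, 2.82, 3.86 and 1.92 CPM on dpi 10 and 3.38, 2.94 and 1.85 CPM on dpi 42. Cdc20 in OLs was at 2.10, 4.44 and 2.72 CPM in naive cord, 2.68, 1.90 and 5.66 on dpi 2, 5.48, 4.30 and 2.36 CPM on dpi 10 and 3.53, 2.80 and 4.62 CPM on dpi 42. The OL groups overlapped, and total RNA of dpi 2 lay above the other groups. Cdc20 rose by 4.33 ± 0.49 log2 units (adjusted p = 6.33e-07) in total RNA. Its OL value was 0.15 ± 0.43 log2 units (adjusted p = 0.863). Of the checkpoint kinase genes, Bub1 rose by 6.16 ± 1.13 log2 units (adjusted p = 0.000225) in total RNA and was at least 8.64-fold higher in OLs. Bub1b rose by 2.88 ± 0.46 log2 units (adjusted p = 3.96e-05) in total RNA, with 0.87 ± 0.46 log2 units (adjusted p = 0.146) in OLs.

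The kinesins and other spindle genes closed the list, with 7 of 7 called higher in total RNA on dpi 2 (median 4.26) and 4 of 7 in OLs. Prc1 (chr7:80294450-80316259, plus strand), which bundles microtubules of the central spindle, was at 1.02, 1.77 and 1.58 CPM in naive cord, 27.4, 26.5 and 29.9 on dpi 2, 3.62, 5.28 and 6.57 CPM on dpi 10 and 4.95, 3.72 and 3.39 CPM on dpi 42 in total RNA. Prc1 in OLs was at 0.546, 0.804 and 0.842 CPM in naive cord, 3.48, 5.18 and 9.03 on dpi 2, 2.29, 3.73 and 3.84 CPM on dpi 10 and 0.804, 3.66 and 1.29 CPM on dpi 42. It rose by 4.25 ± 0.48 log2 units (adjusted p = 7.09e-07) and 3.00 ± 0.48 log2 units (adjusted p = 3.63e-05), and the naive libraries lay below those of dpi 2 and dpi 10 in both. Tpx2 (chr2:152847964-152895321, plus strand), which activates Aurora A on the spindle, was at 2.52, 1.74 and 1.84 CPM in naive cord, 28.3, 29.2 and 29.7 on dpi 2, 6.82, 7.01 and 8.66 CPM on dpi 10 and 3.23, 3.45 and 4.84 CPM on dpi 42 in total RNA. Tpx2 in OLs was at 5.04, 7.66 and 3.67 CPM in naive cord, 8.05, 10.3 and 12.4 on dpi 2, 7.73, 7.08 and 6.17 CPM on dpi 10 and 5.17, 7.21 and 6.18 CPM on dpi 42. Tpx2 started higher in OLs than in total RNA and rose by 0.91 ± 0.26 log2 units (adjusted p = 0.00763) there. It rose by 3.83 ± 0.28 log2 units (adjusted p = 2.95e-09) in total RNA. Kif11 (chr19:37376403-37421859, plus strand), the kinesin that pushes spindle poles apart, was at 0.918, 0.967 and 1.58 CPM in naive cord, 18.1, 24.8 and 11.3 on dpi 2, 3.86, 3.03 and 5.02 CPM on dpi 10 and 2.12, 0.300 and 3.62 CPM on dpi 42 in total RNA. Kif11 in OLs was at 0.756, 1.44 and 1.38 CPM in naive cord, 2.83, 1.01 and 2.37 on dpi 2, 1.32, 4.26 and 0.723 CPM on dpi 10 and 0.734, 1.23 and 2.78 CPM on dpi 42. Kif11 rose by 3.96 ± 0.76 log2 units (adjusted p = 0.000262) in total RNA, while the OL groups overlapped at 0.80 ± 0.70 log2 units (adjusted p = 0.408).

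Kif23, a kinesin of the central spindle, rose by 4.64 ± 0.99 log2 units (adjusted p = 0.00121) in total RNA, and its mean was at least 8.90-fold higher in OLs. Its counts in the dpi 2 OL libraries were 37, 0 and 49. Cenpf, a protein of the outer kinetochore, rose by 5.50 ± 0.66 log2 units (adjusted p = 1.5e-06) and 2.62 ± 0.61 log2 units (adjusted p = 0.00181). Cenpe, the kinetochore kinesin, and Kif20a, a kinesin of cytokinesis, rose by 3.92 ± 0.57 log2 units (adjusted p = 1.26e-05) and 4.30 ± 0.59 log2 units (adjusted p = 7.03e-06) in total RNA. Their OL values of 1.10 ± 0.52 log2 units (adjusted p = 0.104) and 0.92 ± 0.54 log2 units (adjusted p = 0.194) did not pass. Among these members, Kif20a shares 29.3% of its exonic length with a gene on the other strand, as do Ube2c (22.8%), Prc1 (11.1%), Ccnd1 (23.4%), Ccne2 (17.4%) and Ccna2 (12.5%). Reads of both genes cannot be told apart if counting ignored strand.

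**Figure D3:**
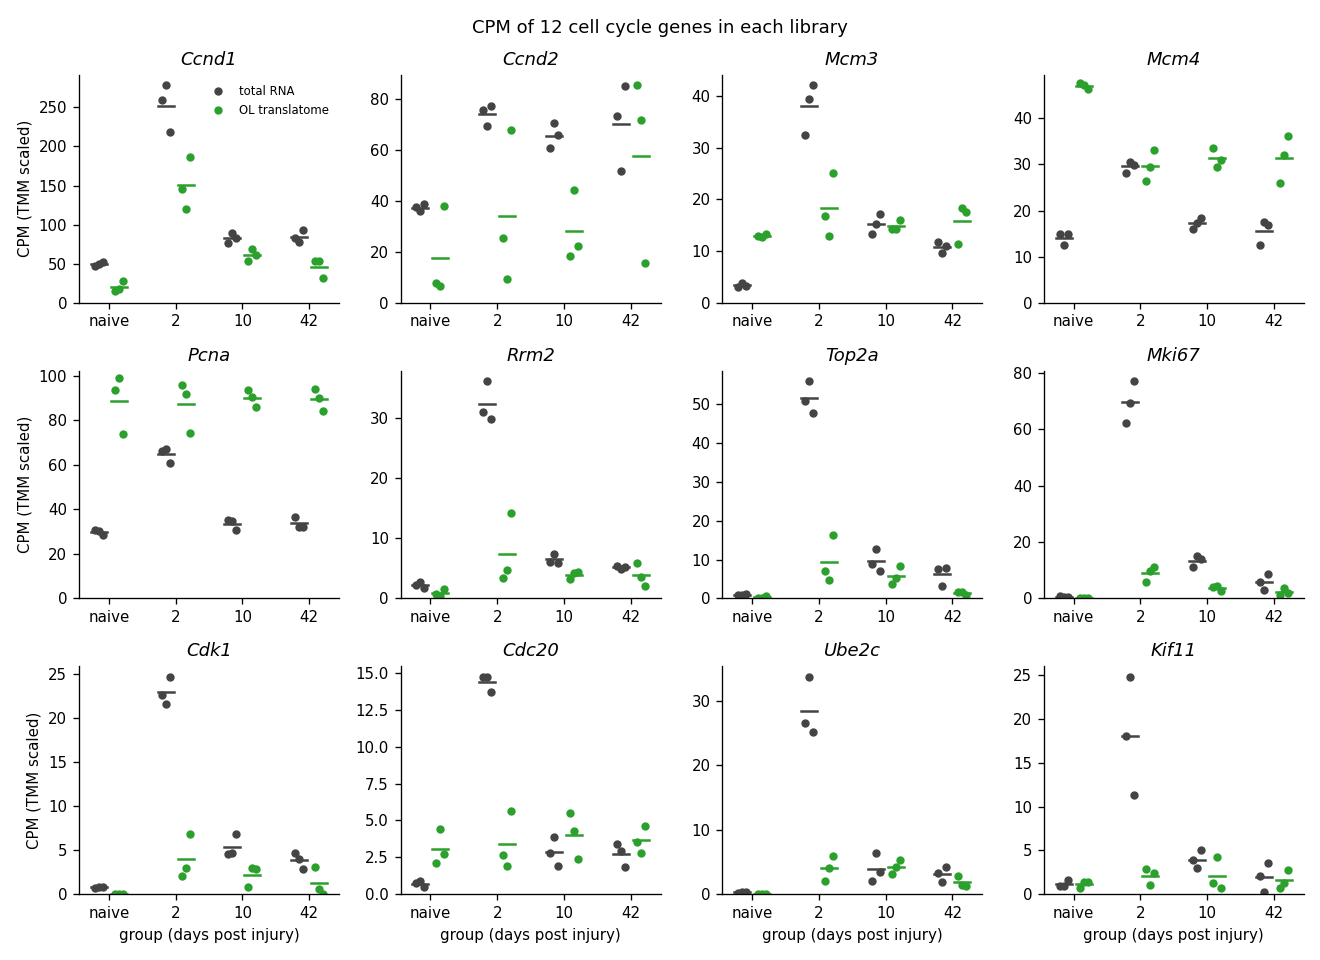
TMM-scaled CPM (vertical axes, linear from 0) of 12 members in each library of the 4 groups (horizontal axes), with total RNA in grey and the OL translatome in green; bars are means of 3 libraries. Mki67, Top2a, Cdk1 and Ube2c peak in total RNA on dpi 2, Pcna and Mcm4 are higher in OLs than in total RNA in naive cord, and Ccnd2 spreads widely among OL libraries.

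From dpi 2 to dpi 10 total RNA lost most of its rise. Of the 40 members, 28 fell and 0 rose (background 4.53% and 3.31%), with a median log2 fold change of -2.32. Those that passed included Mki67 (-2.38 ± 0.36 log2 units, adjusted p = 0.000224), Ube2c (-2.85 ± 0.47 log2 units, adjusted p = 0.000492), Mcm5 (-2.01 ± 0.23 log2 units, adjusted p = 8.36e-06) and Ccnd1 (-1.61 ± 0.21 log2 units, adjusted p = 4e-05). The 23 S, G2 and mitosis genes stood at a median of 18.3% of their dpi 2 mean on dpi 10 (range 11.01% to 25.8%), 12.1% on dpi 42 (5.57% to 20.4%) and 3.37% in naive cord (0.352% to 14.1%). The 9 replication genes, whose naive level was already a larger part of the dpi 2 mean, had medians of 33.9%, 31.0% and 22.6%. The summed level of the 23 S, G2 and mitosis genes in total RNA was 471.9, 534.2 and 507.9 CPM on dpi 2, against 19.2, 17.4 and 18.9 CPM in naive cord, 83.1, 102.9 and 89.5 CPM on dpi 10, and 61.5, 47.2 and 70.4 CPM on dpi 42. Between dpi 10 and dpi 42, 0 of 40 members passed in either direction (background 0.0583% higher and 0.204% lower). At an unadjusted p under 0.05 there were 5 lower and 0 higher, DESeq2 called 1 lower, and a fit on the groups compared alone called 2 lower.

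**Figure D4:**
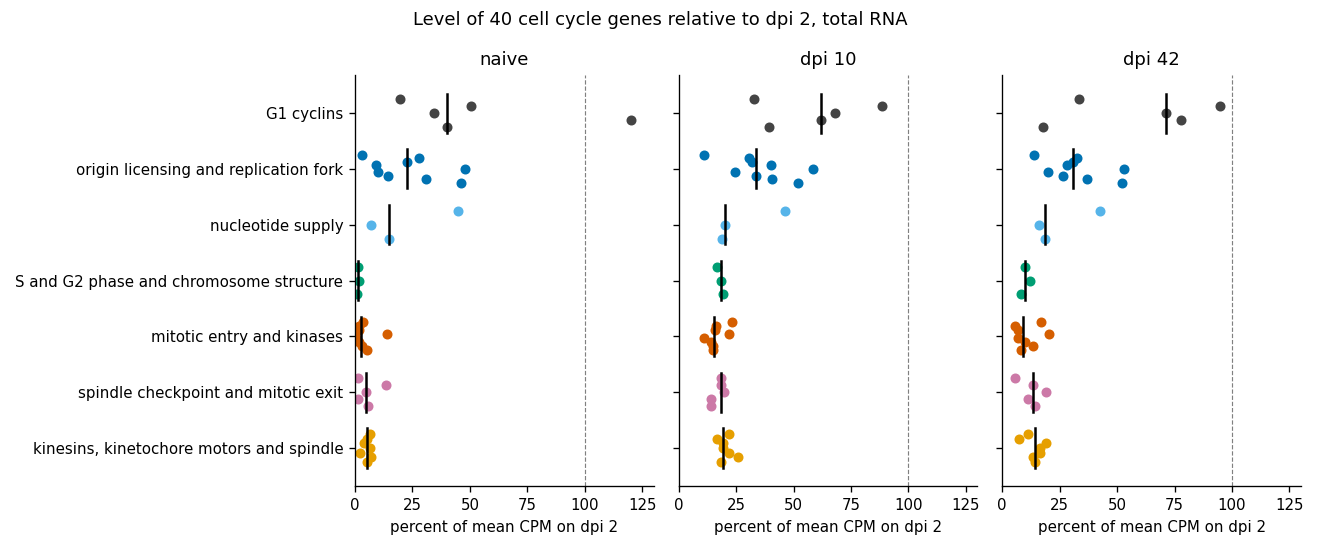
Mean CPM in total RNA in naive cord, on dpi 10 and on dpi 42 as a percent of the dpi 2 mean (horizontal axis) for 40 members in rows by role; black bars are medians and the dashed line marks 100%. S, G2 and mitosis genes lie at 11.01% to 25.8% on dpi 10, and the G1 cyclins reach furthest right.

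In the OL translatome the decline was flatter. The summed level of the 23 S, G2 and mitosis genes was 21.4, 26.2 and 16.1 CPM in the naive libraries, 71.8, 70.2 and 132.9 CPM on dpi 2, 51.2, 69.6 and 62.6 CPM on dpi 10, and 34.2, 38.4 and 31.9 CPM on dpi 42. Every injured library lay above the naive ones, with library 3 of dpi 2 the highest and also holding the most astrocyte marker RNA of its group (7842 CPM); the part of other cells in it was not tested. From dpi 2 to dpi 10, 3 members fell and 0 rose (background 10.6% and 11.7%): Ccnd1 (-1.31 ± 0.21 log2 units, adjusted p = 8.52e-05), Mki67 (-1.28 ± 0.36 log2 units, adjusted p = 0.0135) and Birc5 (-1.68 ± 0.54 log2 units, adjusted p = 0.0274). That count was 1 without dpi 2 OL library 3 or without dpi 10 OL library 3. The share of members that fell was below the background. From dpi 10 to dpi 42, 4 fell and 0 rose (background 3.9% and 3.28%). They were Ccna2 (-1.81 ± 0.47 log2 units, adjusted p = 0.0242), Top2a (-1.99 ± 0.53 log2 units, adjusted p = 0.0282), Ccnb1, which went from 42 counts to 0 (at least 4.82-fold lower), and Kif23, from 52 counts to 0 (at least 5.96-fold lower). The dpi 10 OL libraries held 16, 26 and 0 counts of Ccnb1 and 18, 7 and 27 of Kif23. With the replicate block Ccnb1 had an adjusted p of 0.0572. The count was 2 without dpi 10 OL library 2, 1 without dpi 42 OL library 1, and 0 in a fit on the groups compared alone.

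OL enrichment compares the OL translatome with total RNA of the same groups, and asks whether an mRNA is more or less abundant on tagged ribosomes than in the whole cord. In naive cord, 10 members were enriched and 14 depleted (background 24.9% and 30.5%), with a median log2 ratio of -0.46 (-0.10 with genes at 0 set to their bounds; all genes -0.27). The enriched share was close to the background, and the depleted share was a little above it. The enriched members were Pcna, Rrm1, Tpx2, Cdc20, Cdc45, Mcm2, Mcm3, Mcm4, Mcm5 and Mcm7, so that 7 of the 9 replication genes were among them (median 1.57). Their values ranged from 1.17 for Mcm7 to 2.11 ± 0.46 log2 units (adjusted p = 0.000443) for Cdc20. Depleted members included Ccne1 (-3.71 ± 0.41 log2 units, adjusted p = 1.11e-07), Tyms (-2.31 ± 0.68 log2 units, adjusted p = 0.0065), Top2a (-1.82 ± 0.67 log2 units, adjusted p = 0.0253), Mki67 (-1.58 ± 0.55 log2 units, adjusted p = 0.0189) and Ccnd1 (-1.33 ± 0.21 log2 units, adjusted p = 1.24e-05). Cdk1 was 18.97-fold (95% counting interval 6.24 to 94.2) lower in OLs, and Kif23 at least 3.15-fold lower. Naive calls depended on single libraries, with 13 enriched and 12 depleted without naive OL library 3, 17 calls without naive OL library 1 or 2, and 19 without naive total RNA library 1.

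On dpi 2 the picture turned, with 34 members depleted and 1 enriched (background 28.8% and 24.8%). All 23 S, G2 and mitosis genes were depleted (median -2.81, from -3.62 to -1.502). Pcna was the enriched one, at 0.43 ± 0.11 log2 units (adjusted p = 0.00256), and scaling by library size alone put it at -0.14. On dpi 10, 6 were enriched and 4 depleted (background 25.2% and 28.8%), and on dpi 42, 10 were enriched and 10 depleted (background 24.9% and 28.9%). The dpi 10 shares lay below the background, and those of dpi 42 were close to it. The later splits depended on the scaling: library sizes alone gave 3 enriched and 18 depleted on dpi 10 and 4 and 18 on dpi 42, while DESeq2 size factors gave 6 and 5, and 6 and 11. A TMM scaling on a total RNA reference gave 6 and 6, and 5 and 11. Library sizes alone moved the median of all genes in naive cord from -0.27 to -0.78. Replication genes were the main enriched members on dpi 10, as Pcna (1.42 ± 0.11 log2 units, adjusted p = 9.65e-10), Mcm2 (1.37 ± 0.20 log2 units, adjusted p = 5.77e-06) and Cdc45 (0.97 ± 0.34 log2 units, adjusted p = 0.0193, 0.0623 with the replicate block).

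**Figure D5:**
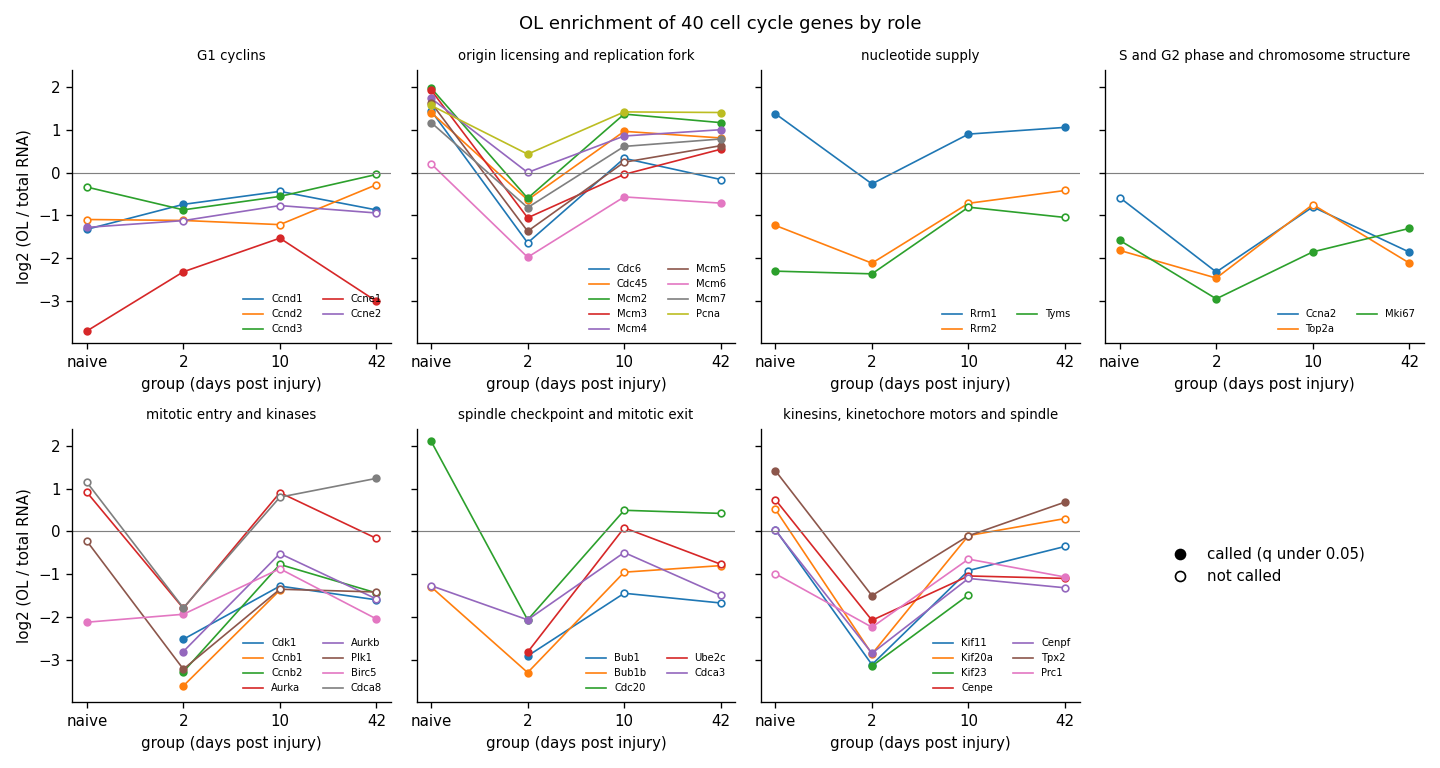
Log2 ratio of the OL translatome over total RNA (vertical axes) in naive cord and on dpi 2, 10 and 42 (horizontal axes) for 40 members in 7 panels by role; filled points passed the test, and values on 3 or fewer OL counts are left out. The Mcm genes, Cdc45 and Pcna lie lower on dpi 2 than in naive cord, Mcm6 also lies below 0 on dpi 10 and 42, and every mitotic gene lies below 0 on dpi 2.

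The difference between the OL change and the total RNA change was tested as an interaction. On dpi 2, the OL change lay below the total RNA change in 18 members and above it in 0 (background 6.03% and 8.06%). A positive difference that did not pass was fitted in 11 members. They included the 7 with 0 to 3 counts in naive OLs, whose differences have no firm size, as Kif23 (3.38 ± 2.01 log2 units, adjusted p = 0.318). The 18 comprised Cdc45, Pcna and all 6 Mcm genes, Rrm1, and 9 genes of mitosis. Cdc20 had the widest gap at -4.18 ± 0.63 log2 units (adjusted p = 0.000128), followed by Kif20a (-3.38 ± 0.77 log2 units, adjusted p = 0.00463), Kif11 (-3.16 ± 1.00 log2 units, adjusted p = 0.0376) and Mcm5 (-3.01 ± 0.32 log2 units, adjusted p = 3.75e-06). With the replicate block 16 passed on dpi 2, and Cenpe (adjusted p = 0.0755) and Cenpf (adjusted p = 0.0995) did not. On dpi 10, 4 members were lower (Mcm3, Mcm4, Mcm5 and Tpx2) and 2 higher (Ccne1 and Ube2c) by this measure, with a background of 3.09% and 4.57%. The share of higher members was close to the background. On dpi 42, 0 were higher and 2 were lower (background 4.37% and 3.47%), Mcm3 (-1.39 ± 0.30 log2 units, adjusted p = 0.00657) and Mcm4 (-0.73 ± 0.20 log2 units, adjusted p = 0.0245). That share is close to the background, and the count was 1 to 7 when 1 library was left out and 6 with TMM on a total RNA reference. Between dpi 2 and dpi 10, the OL enrichment of 11 members increased and that of 0 decreased (background 1.24% and 0.903%), among them Ube2c (2.91 ± 0.64 log2 units, adjusted p = 0.0181), Aurka (2.71 ± 0.64 log2 units, adjusted p = 0.029), Cdc20 (2.57 ± 0.60 log2 units, adjusted p = 0.0286) and Mcm2 (1.97 ± 0.28 log2 units, adjusted p = 0.000606). Under the block this last count was 8, Mcm4 on dpi 42 had an adjusted p of 0.0526, and between dpi 2 and dpi 10 Aurka (0.0883), Cdc20 (0.051), Mcm4 (0.0643) and Tpx2 (0.0955) lost their calls, while Cdca8 (0.0491) gained one. In the fit without the block, the count of 11 became 5 without pool 2 of dpi 2 (both libraries) and 5 without dpi 10 total RNA library 1.

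As a share of the rise in mean CPM of total RNA, the OL rise of the 23 S, G2 and mitosis genes had a median of 13.4% on dpi 2 (2.38% to 26.2%). For 18 of them called on dpi 10 it was 51.9% (-13.1% to 148%), and for 11 on dpi 42 it was 34.6% (21.98% to 65.3%). For the markers of microglia and macrophages called higher in total RNA (7, 8 and 7 of the 8 at the 3 times), the medians were 7.93% (2.94% to 14.2%), 10.3% (5.68% to 27.96%) and 7.06% (4.72% to 20.4%). P2ry12 was the marker not called on dpi 2 in total RNA, and it fell in OLs with -0.60 ± 0.20 log2 units (adjusted p = 0.0218). The 5 endothelial markers called gave 5.60% on dpi 2 (0.451% to 6.93%). This share was not computed for markers of other cell types. The 8 microglia and macrophage markers summed to 201 to 237 CPM in naive total RNA, 790 to 858 CPM on dpi 2, 1453 to 1852 CPM on dpi 10 and 965 to 1329 CPM on dpi 42. In the OL libraries the same sum was 18.5 to 25, 49.4 to 67.6, 116 to 153 and 65.9 to 112 CPM, with 0 of 8 markers at 0. OPC markers summed to 391 to 509 CPM in naive OLs and 177 to 272 CPM in OLs on dpi 2, against 357 to 405 and 358 to 435 CPM in total RNA. Olig2, which mature OLs also express, made up most of that OL sum, at 353, 422 and 418 CPM in naive OLs and 176, 147 and 194 CPM on dpi 2. The other 7 OPC markers summed to 31.6 to 90.9 CPM in naive OLs and 30.5 to 77.5 CPM in OLs on dpi 2. In total RNA, 2 of the 8 rose on dpi 2, Pdgfra (0.93 ± 0.34 log2 units, adjusted p = 0.037) and Cspg4 (1.23 ± 0.30 log2 units, adjusted p = 0.00268). Schwann cell markers in the OL libraries summed to 96.8 to 762 CPM in naive cord, 323 to 809 CPM on dpi 2, 959.6 to 1636 CPM on dpi 10 and 1319 to 1498 CPM on dpi 42, with 1 of 8 called higher on dpi 2. Pericyte and fibroblast markers summed to 52.2 to 98.1, 213 to 292, 560.5 to 628.6 and 243 to 313 CPM there, with 7 of 8 called higher on dpi 2. In total RNA their sum was 153 to 190 CPM in naive cord and 586 to 1057 CPM on dpi 2. It was 2413 to 2680 CPM on dpi 10 and 691 to 1124 CPM on dpi 42. The part of RNA from other cells in the OL values was not tested.

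Among other cell cycle genes, the CDK inhibitors, which hold cells out of the cycle, did not move as a block. Over all genes tested on dpi 2, 16.4% were higher and 20.8% lower in total RNA, and 18.4% and 20% in OLs. On dpi 2, 2 of 7 rose in total RNA, Cdkn2c (3.55 ± 0.39 log2 units, adjusted p = 4.73e-07), an inhibitor of CDK4 and CDK6, and Cdkn1a, the p21 gene (1.59 ± 0.29 log2 units, adjusted p = 0.000195). In OLs 3 of 7 rose, Cdkn2c (1.23 ± 0.36 log2 units, adjusted p = 0.0103), Cdkn2b (2.52 ± 0.85 log2 units, adjusted p = 0.0235) and Cdkn2d (1.07 ± 0.15 log2 units, adjusted p = 5.59e-06), and Cdkn1c, the p57 gene, fell with -0.97 ± 0.29 log2 units (adjusted p = 0.0104). Cdkn1a was at 169, 152 and 113 CPM in naive OLs and 124, 272 and 74.9 CPM in OLs on dpi 2, against 30.3, 23.6 and 27.9 CPM and 72.4, 109.9 and 64.7 CPM in total RNA. It was enriched in naive OLs by 2.40 ± 0.30 log2 units (adjusted p = 6.07e-07), and its OL value on dpi 2 was 0.12 ± 0.29 log2 units (adjusted p = 0.812). Cdkn1b, the p27 gene, was at -0.34 ± 0.18 log2 units (adjusted p = 0.158) in total RNA and -0.19 ± 0.18 log2 units (adjusted p = 0.459) in OLs, and Cdkn2a had 0 counts in naive OLs.

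Other lists of cell cycle genes gave mixed counts in total RNA, from lists with most genes called higher to the APC/C subunits with few calls. The dpi 2 background was 16.4% higher and 20.8% lower in total RNA, and 18.4% and 20% in OLs. On dpi 2, 10 of 11 other kinetochore and checkpoint genes rose (Cenpa, the centromeric histone, 5.03 ± 0.63 log2 units, adjusted p = 2.59e-06), as did 10 of 12 other kinesins and cytokinesis genes (Cep55, of the last cut between daughter cells, 3.99 ± 0.53 log2 units, adjusted p = 4.58e-06) and 15 of 25 other replication genes (Gins2, of the active helicase, 2.71 ± 0.27 log2 units, adjusted p = 1.12e-07), with 0 lower in each. In OLs the counts were 5 higher and 0 lower, 5 and 1, and 7 and 3. Of 16 E2F, B-MYB, FOXM1 and MuvB genes, 7 rose and 3 fell in total RNA (Foxm1 3.45 ± 0.51 log2 units, adjusted p = 1.63e-05), and 5 rose and 2 fell in OLs (Foxm1 0.44 ± 0.47 log2 units, adjusted p = 0.518, which did not pass). G1 CDKs and RB proteins gave 4 higher and 1 lower of 6 in total RNA and 5 and 1 in OLs, with Cdk2 at 2.6 ± 0.30 log2 units (adjusted p = 7.86e-07) and 1.93 ± 0.30 log2 units (adjusted p = 2.82e-05).

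Of 9 checkpoint kinases and CDC25 phosphatases, 4 rose in total RNA (Cdc25b 1.91 ± 0.43 log2 units, adjusted p = 0.00127), and 1 rose and 2 fell in OLs. The 10 condensin and cohesin genes, which shape and tie chromosomes, gave 5 higher and 1 lower in total RNA and 2 higher and 5 lower in OLs, with Smc4 at 1.5 ± 0.16 log2 units (adjusted p = 2.35e-07) and -0.40 ± 0.15 log2 units (adjusted p = 0.0471). The 12 APC/C subunits, made in dividing and resting cells alike, gave 1 higher and 2 lower in total RNA and 3 higher and 4 lower in OLs. The background for these lists was 16.4% higher and 20.8% lower in total RNA, and 18.4% and 20% in OLs. In naive cord, 16 of 25 other replication genes and 7 of 12 APC/C genes were OL enriched, against 2 and 1 depleted (background 24.9% and 30.5%).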

How the data were processed

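Whole-number read counts per gene, raw and not normalized, were deposited by the authors for 24 libraries, 1 table for all. Per the study's methods, reads were checked with FastQC 0.10.1, aligned to mm10 with STAR and counted with HTSeq 0.10.0 (GRCm38.p6 in the submitters' notes). Whether counting used strand is not given in the sources used here. Groups were taken from the labels; for 2 dpi 42 libraries, whose labels conflict, the description field was used. Genes summing to 10 counts or more over all libraries (17167 of 21965) were scaled by TMM and fitted with edgeR 4.0.16 (R 4.3.3; quasi-likelihood F test, 2-sided, 1 mean per group, Benjamini-Hochberg over all genes tested, called at 0.05). CPM are TMM-scaled. The study's groups share 1 estimate of the spread, and p-values measure the spread between pools of 2 mice. Depth was 25840127 to 32987841 counts, and intervals (95%, exact) and floors of 3 counts cover counting error only.

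The members and lists were chosen with earlier results of these data known. Values in every library are given for the members with the highest mean CPM of each role (2, or 3 where a role has 7 or more), for those OL enriched in naive cord or called against the main direction on dpi 2, and for those with differential enrichment at 2 or more times. Of each other list at most 3 genes with the smallest p on dpi 2, and all CDK inhibitors, could be named. The test was tried on simulated data. Alternatives were DESeq2 1.42.0, 3 other scalings, 2 other filters, a fit on the groups compared, a replicate block, a fold limit of 1 on the log2 scale, and leaving out each library or pool 2 of dpi 2. The comparison of enrichment between dpi 10 and dpi 2 was added after values were seen. The OL and total RNA libraries of a pool share tissue, so pool numbers pair them within a group. On dpi 42, total RNA library 1 came from pool 2 and library 2 from pool 1, so library numbers do not pair there. Residuals of the same pool correlated at -0.011 to 0.137, and those of different pools at -0.105 to 0.050. On dpi 42 alone these ranges were -0.011 to 0.020 and -0.028 to 0.025. Numbers of different groups are different animals. Windows and motifs came from RefSeq promoters of GRCm38.p6, and 32 of 35 windows ended in the sense of their transcript. One mature OL marker of the fixed list is not reported here.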

Additional observations from a re-analysis of the deposited data

Results flagged for a closer look

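Results are listed here where the change in the OL translatome and the change in total RNA differed by a test of the difference itself, the interaction term of the edgeR quasi-likelihood fit. Values are log2 differences, OL change minus total RNA change, with their SE and adjusted p. On dpi 2 the 18 members were Cdc20 (-4.18 ± 0.63, adjusted p = 0.000128), Kif20a (-3.38 ± 0.77, adjusted p = 0.00463), Kif11 (-3.16 ± 1.00, adjusted p = 0.0376), Mcm5 (-3.01 ± 0.32, adjusted p = 3.75e-06), Mcm3 (-2.99 ± 0.30, adjusted p = 2.43e-06), Cdca8 (-2.94 ± 0.73, adjusted p = 0.00859), Tpx2 (-2.92 ± 0.37, adjusted p = 2.35e-05), Cenpf (-2.88 ± 0.85, adjusted p = 0.0264) and Cenpe (-2.82 ± 0.74, adjusted p = 0.0128), followed by Aurka (-2.72 ± 0.65, adjusted p = 0.00657), Mcm2 (-2.58 ± 0.28, adjusted p = 4.83e-06), Mcm6 (-2.19 ± 0.34, adjusted p = 0.000163), Cdc45 (-2.04 ± 0.47, adjusted p = 0.00544), Bub1b (-2.01 ± 0.63, adjusted p = 0.0381), Mcm7 (-1.99 ± 0.26, adjusted p = 3.27e-05), Mcm4 (-1.74 ± 0.20, adjusted p = 7.01e-06), Rrm1 (-1.64 ± 0.15, adjusted p = 6.03e-07) and Pcna (-1.14 ± 0.16, adjusted p = 6.03e-05). All these values are negative, the OL change lying below that of total RNA. On dpi 10 they were Mcm3 (-1.97 ± 0.30, adjusted p = 0.000287), Tpx2 (-1.52 ± 0.37, adjusted p = 0.0131), Mcm5 (-1.39 ± 0.32, adjusted p = 0.00918), Mcm4 (-0.88 ± 0.20, adjusted p = 0.00805), Ccne1 (2.17 ± 0.54, adjusted p = 0.0152) and Ube2c (4.37 ± 1.07, adjusted p = 0.0143). The Ube2c value rests on 1 count in naive OLs and has no firm size. On dpi 42 they were Mcm3 (-1.39 ± 0.30, adjusted p = 0.00657) and Mcm4 (-0.73 ± 0.20, adjusted p = 0.0245). Between dpi 10 and dpi 2, the difference in OL enrichment (dpi 10 minus dpi 2) passed for Mcm4 (0.85 ± 0.20, adjusted p = 0.0246), Pcna (0.99 ± 0.16, adjusted p = 0.00212), Rrm1 (1.17 ± 0.15, adjusted p = 0.00047), Tpx2 (1.40 ± 0.36, adjusted p = 0.0448), Mcm6 (1.41 ± 0.33, adjusted p = 0.0285), Mcm7 (1.43 ± 0.26, adjusted p = 0.00511), Mcm5 (1.62 ± 0.31, adjusted p = 0.00868), Mcm2 (1.97 ± 0.28, adjusted p = 0.000606), Cdc20 (2.57 ± 0.61, adjusted p = 0.0286), Aurka (2.71 ± 0.64, adjusted p = 0.029) and Ube2c (2.91 ± 0.64, adjusted p = 0.0181), each of them positive. With the replicate block, which pairs the OL and total RNA libraries of a pool, calls were lost by Cenpe and Cenpf on dpi 2 (adjusted p = 0.0755 and 0.0995), by Mcm4 on dpi 42 (adjusted p = 0.0526), and by Aurka, Cdc20, Mcm4 and Tpx2 between dpi 10 and dpi 2 (adjusted p = 0.0883, 0.051, 0.0643 and 0.0955). The causes were not tested.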

How the results depend on the processing

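Counts of members called are limited by 3 pools a group and by low counts in OLs, where 7 members had at most 3 counts in any naive library. Leaving out 1 library at a time gave these ranges. In total RNA against naive, 37 to 38 members were called on dpi 2 (reported 38), 17 to 29 on dpi 10 (24) and 12 to 19 on dpi 42 (16). In OLs the ranges were 20 to 27 (26), 15 to 21 (19) and 10 to 17 (16). Between dpi 2 and 10, and 10 and 42, they were 24 to 33 (28) and 0 to 0 (0) in total RNA, and 1 to 4 (3) and 1 to 5 (4) in OLs. For OL enrichment they were 17 to 25 (24) in naive cord, 34 to 36 (35) on dpi 2, 7 to 11 (10) on dpi 10 and 14 to 22 (20) on dpi 42. The naive split became 13 enriched and 12 depleted (25 in all) without naive OL library 3. For differential enrichment they were 15 to 21 (18), 5 to 8 (6) and 1 to 7 (2) on dpi 2, 10 and 42, and 5 to 16 (11) for dpi 10 against dpi 2.

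The dpi 42 differential count moved by over 1.5 times without any of 11 libraries: it was 7 without naive OL 3 or dpi 42 OL 3, 6 without dpi 2 OL 2 or 3, 4 without dpi 2 OL 1 or any dpi 10 OL library, and 1 without naive total 2 or dpi 42 total 2 or 3. For dpi 10 against dpi 2 it was 7 without dpi 2 total 1 or 3 or dpi 10 total 2, 6 without dpi 10 total 3 and 5 without dpi 10 total 1.

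A fit on the groups compared alone called 26 members in total RNA on dpi 42 (reported 16), 5 in OLs on dpi 42 (16), 2 between dpi 10 and 42 in total RNA (0) and 0 in OLs (4), 10 for OL enrichment on dpi 42 (20) and 1 for differential enrichment on dpi 42 (2). DESeq2 called 1 between dpi 10 and 42 in total RNA (0), 5 between dpi 2 and 10 in OLs (3) and 5 for differential enrichment on dpi 42 (2). Library sizes alone turned OL enrichment on dpi 10 from 6 enriched and 4 depleted to 3 and 18 (21 in all), and moved Pcna on dpi 2 from 0.43 to -0.14. Requiring a log2 fold change past 1 left 4 for OL enrichment on dpi 10 (10), 13 on dpi 42 (20) and 1 for differential enrichment on dpi 42. That last count of 2 also became 6 with TMM on a total RNA reference and 4 with edgeR's own filter. Without both libraries of pool 2 of dpi 2, the count for dpi 10 against dpi 2 was 5 (11). The causes were not tested.

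With the replicate block, which pairs OL and total RNA of a pool, OL enrichment gave 21, 34, 9 and 18 calls in naive cord and on dpi 2, 10 and 42, and differential enrichment gave 16, 6 and 1, and 8 for dpi 10 against dpi 2. For changes against naive the block was the pool number, which different animals share across groups. It left 37, 23 and 15 calls in total RNA and 25, 19 and 15 in OLs. Of the members' single results, 695 kept their direction and side of the threshold under the block, 22 lost and 3 gained a call. Under DESeq2 these numbers were 646, 1 and 44.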

Other observations

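The gene lists next to the members showed where else OL and total RNA changes parted on dpi 2. Of the 25 other replication genes, 8 had an OL change below the total RNA change and 0 above it, with a median log2 difference of -0.82. Of the 11 other kinetochore and checkpoint genes 4 did (median -1.49), of the 12 other mitotic kinesins and cytokinesis genes 4 (median -1.92), and of the 10 condensin and cohesin genes 3 (median -0.71), with 0 above in each (background 6.03% below and 8.06% above). APC/C subunits gave 4 below and 1 above of 12 (median 0.01), the E2F, B-MYB, FOXM1 and MuvB genes 3 below and 2 above of 16 (median -0.31), CDK inhibitors 2 below and 1 above of 7 (median 0.15), and checkpoint kinases and CDC25 phosphatases 1 below and 0 above of 9 (median -0.47). G1 CDKs and RB pocket proteins gave 0 in either direction of 6 (median -0.43). On dpi 10 the calls of the other replication, kinetochore, kinesin and condensin lists were 0 in both directions. The dpi 10 background was 3.09% below and 4.57% above, so that 0 calls in lists of this size is close to it.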
